A study of Mus musculus with 11 samples.

Results

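A set of genes listed as factors of mesenchyme and of epithelial to mesenchymal transition was followed in the facial processes of E10.5 mouse embryos. It held *Twist1*, *Twist2*, *Prrx1*, *Prrx2*, *Snai1*, *Snai2*, *Zeb1*, *Zeb2* and *Tcf12*. The members were chosen by name, and their symbols were matched to the Ensembl identifiers of the count tables. All 9 were found among 38561 genes and all 9 were abundant enough to be tested among 17317 genes. RNA had been taken from explants that held the mandibular and maxillary parts of the first branchial arch together with the nasal processes, on a strain background labelled Mixed. There were 11 libraries, 2 from wild type (wt) embryos, 3 from embryos lacking *Rspo2* (Rspo2KO), 3 from embryos lacking *Wnt9b* (Wnt9bKO) and 3 from embryos lacking both genes (DKO). These are germline mutants, so every cell of the embryo carries the mutation and no Cre driver is involved. The methods list an *Rspo2* null allele and a derivative without its reporter and selection cassette, and the labels do not say which was used. The methods count embryos per genotype for most experiments, but do not say whether an RNA sample was a single embryo or a pool, so p-values measure the spread between these libraries, which may in part be technical.

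WNT9b is a secreted WNT ligand of the facial surface ectoderm and RSPO2 is a secreted enhancer of WNT signaling, so the comparisons ask what the loss of either or both does to the cells of the face. Facial mesenchyme descends mostly from the cranial neural crest, which leaves the neural epithelium by an epithelial to mesenchymal transition. SNAI and ZEB proteins are zinc finger repressors that bind E-box elements in epithelial genes such as *Cdh1*, which encodes E-cadherin. TWIST proteins are basic helix-loop-helix (bHLH) factors that bind DNA with E-protein partners such as TCF12, and PRRX proteins are paired-type homeodomain factors of limb and face mesenchyme.

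The sequences below show the E-box that SNAI and ZEB proteins are known to bind, in the 250 bases before the annotated start of a member that has it and of 2 epithelial genes from a list of known targets of these repressors. The letters CACCTG and their reverse complement CAGGTG are in capitals, each sequence is written 5′ to 3′ on the strand of its gene, and the bases are those of RefSeq on GRCm38.p6.
Snai1, chr2:167537945-167538194, plus strand: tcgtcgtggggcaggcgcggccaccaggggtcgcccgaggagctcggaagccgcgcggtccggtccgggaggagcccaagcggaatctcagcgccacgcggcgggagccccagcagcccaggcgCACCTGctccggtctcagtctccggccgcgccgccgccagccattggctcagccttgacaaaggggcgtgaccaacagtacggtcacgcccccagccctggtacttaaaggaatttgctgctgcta
Epcam, chr17:87635729-87635978, plus strand: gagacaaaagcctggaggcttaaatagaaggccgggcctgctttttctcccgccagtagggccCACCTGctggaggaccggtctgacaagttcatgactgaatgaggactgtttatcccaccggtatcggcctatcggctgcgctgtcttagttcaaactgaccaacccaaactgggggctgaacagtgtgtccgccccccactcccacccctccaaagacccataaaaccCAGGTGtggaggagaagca
Grhl3, chr4:135573633-135573882, minus strand: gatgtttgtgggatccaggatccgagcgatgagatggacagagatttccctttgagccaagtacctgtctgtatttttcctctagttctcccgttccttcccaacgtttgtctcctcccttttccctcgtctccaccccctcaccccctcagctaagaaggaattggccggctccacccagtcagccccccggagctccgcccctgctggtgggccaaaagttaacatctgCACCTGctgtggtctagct

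Windows from 250 bases before to 50 bases after the start were available for 7 of the 9 members, and not for *Snai2* and *Zeb1*. Of these 7 members, *Snai1* alone held CACCTG on either strand. Of 25 genes listed as known epithelial targets, 16 had a window and 14 of them held it, against 22.6% of 27025 genes with a window. That list was assembled as known targets of these repressors, so its share is a description of the list. Of 14 listed mesenchyme products with a window, 1 held the letters. The looser E-box CANNTG, which covers CACCTG as well, was present in 2 of 7 members, in 15 of 16 epithelial genes and in 75.0% of all genes. The E-box CATATG, a TWIST-type element, was found in no member window and in 4.48% of all genes.

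Library totals ran from 11136166 to 18017344 counts, and levels are given as CPM, counts scaled to a common library size, here a library total corrected by TMM factors of 0.915 to 1.10. The libraries labelled Wnt9bKO 2 and DKO 3 held *Rspo2* counts that go against their labels, 2.86 CPM in the former and 15.5 CPM in the latter, against 14.8 and 15.99 CPM in wt. *Wnt9b* was read at 10.8 to 23.3 CPM in every library, so counts over the whole gene do not check that allele. *Xist*, which is transcribed from the inactive X of female cells, stood at 679 to 1468 CPM in the wt and DKO libraries and at 0.820 to 1.94 CPM in the others. *Ddx3y*, a Y-linked gene, stood at 0.0587 to 1.07 CPM in wt, DKO 1 and DKO 2. It stood at 4.43 CPM in DKO 3, and from 57.5 to 75.7 CPM in Rspo2KO and Wnt9bKO. Embryo sex and genotype therefore cannot be told apart in any of the comparisons below but DKO against wt. Small nuclear RNAs summed to 352 to 419 CPM in wt and Rspo2KO and to 70.1 to 82.6 CPM in Wnt9bKO and DKO. That last split follows the *Wnt9b* genotype, so the state of the libraries and the loss of *Wnt9b* cannot be told apart in any comparison across it, whereas Rspo2KO against wt and DKO against Wnt9bKO lie within one side of it, though not within one sex. All 14 facial mesenchyme markers, among them *Pdgfra*, *Alx1* and *Msx1*, were above 1 CPM in all libraries, as the tissue label has it. Markers of epithelium, neurons, forebrain and eye, blood cells and endothelium were present as well, so each value is a mixture over cell types. In such bulk samples fewer cells of a type and less RNA per cell cannot be told apart.

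To compare the genes with each other, CPM was divided by the length of the merged exons in kilobases. On that scale *Twist1* had the highest level in wt, 65.5 ± 2.23 CPM per kb (SD, n = 2). *Prrx1* at 32.6 ± 2.16, *Tcf12* at 31.4 ± 0.959 and *Prrx2* at 30.7 ± 1.05 CPM per kb followed within their spread of one another. *Twist2* at 7.77 ± 1.36, *Zeb1* at 6.19 ± 0.453 and *Zeb2* at 5.64 ± 0.202 CPM per kb formed the next set, where neighbours again lay within their spread. *Snai1* at 3.40 ± 0.453 and *Snai2* at 3.07 ± 0.0318 CPM per kb had the lowest levels, and they too did not differ beyond their spread. The order depends on which transcript is taken as the length. With the longest coding transcript *Tcf12* ranked 1 at 77.4 CPM per kb, ahead of *Twist1* at 65.5 CPM per kb, and *Twist2* went from rank 5 to rank 7. *Snai1* and *Snai2* kept ranks 8 and 9 in all 4 genotypes on both lengths. The depth behind these levels differed as well, since *Snai1* rested on 56 to 187 counts per library and *Tcf12* on 5348 to 8257.

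**Figure D1:**
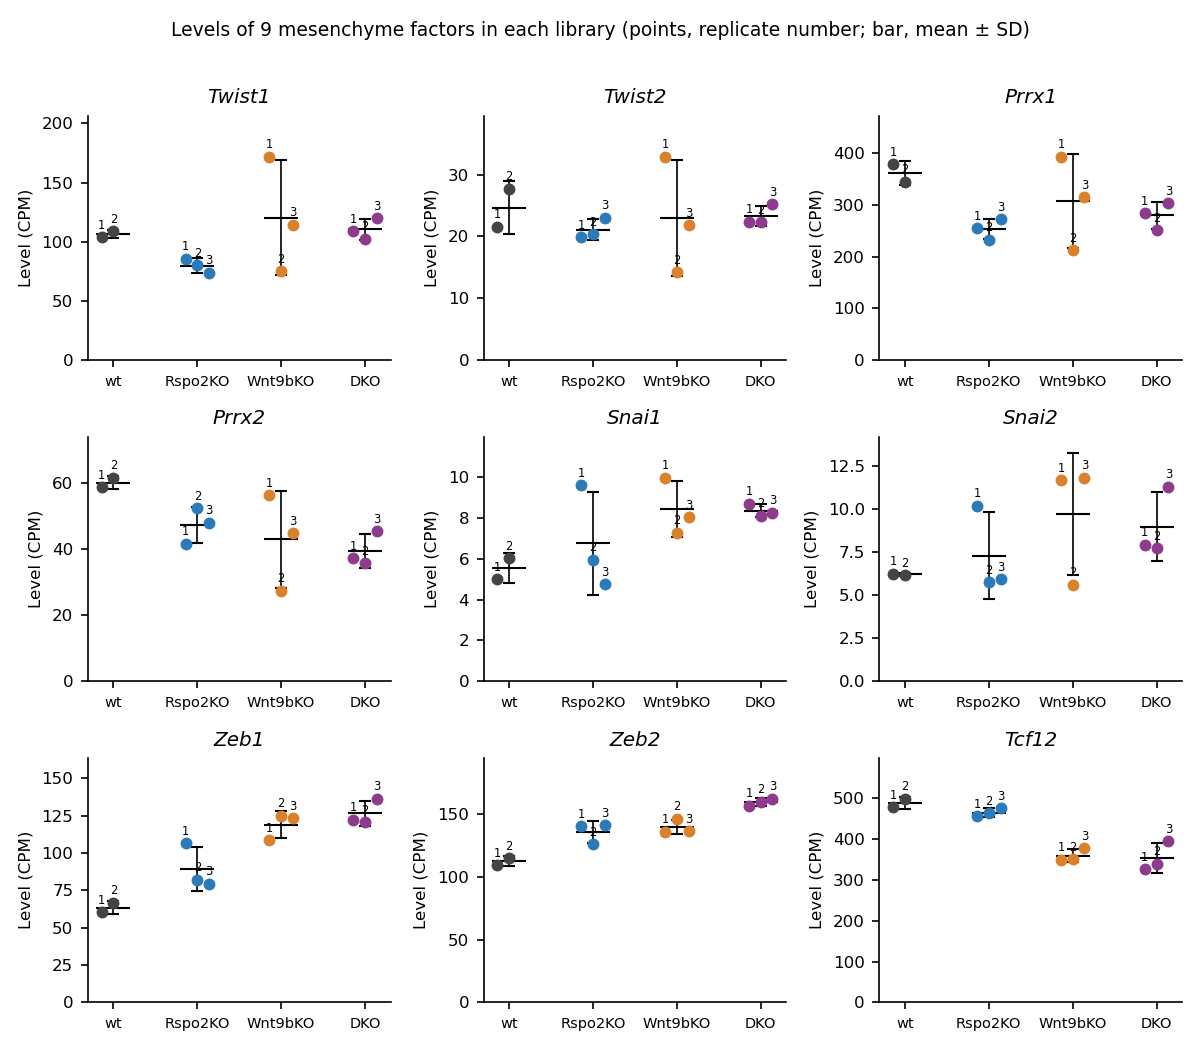
Level of each of the 9 genes (y axis, CPM, from 0) in each of 11 libraries, by genotype (x axis). Points carry the replicate number, and bars give the mean and SD (n = 2 for wt, 3 for the others). *Zeb1* and *Zeb2* are lowest in both wt libraries, *Tcf12* is lower in all 6 libraries without *Wnt9b*, and the PRRX and TWIST panels show the wide spread of the Wnt9bKO group between its libraries 1 and 2.

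In Wnt9bKO against wt, which also crosses the small nuclear RNA split and embryo sex, *Zeb1* and *Zeb2*, the repressors of the ZEB family, were higher. *Tcf12*, the E-protein, was lower. Of these, *Zeb2* did not hold once GC content and gene length were fitted. These 3 of the 9 members passed an adjusted p of 0.05 (edgeR quasi-likelihood test with Benjamini-Hochberg adjustment over all genes tested), where 32.8% of all genes tested did, so the share of members was near the background. The median log2 fold change was 0.18 over the 9 members and 0.013 over all genes tested. The groups did not overlap in 5 members, against 56.3% of all genes.

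*Zeb1*, which encodes a zinc finger and homeodomain repressor, was read at 60.2 and 66.8 CPM in the wt libraries. The 3 Wnt9bKO libraries held 108, 125 and 123 CPM. All mutant libraries were above both wt libraries, by 1.87-fold on average (log2 fold change 0.90 ± 0.13 SE, adjusted p = 0.00026). It was the single member that passed both the adjusted p and 1.5-fold, as 21.2% of all genes did. *Snai1* and *Snai2* were past 1.5-fold without passing the adjusted p. It was called under all 22 other settings tried, DESeq2 among them, with log2 fold changes of *Zeb1* from 0.67 to 0.98.

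*Zeb2*, its paralog with a known role in neural crest and nervous system development, had 109.6 and 115 CPM in wt and 136, 147 and 137 CPM in Wnt9bKO. Again the groups did not overlap, but the step was smaller (log2 fold change 0.31 ± 0.096 SE, adjusted p = 0.022). The call was lost when an offset for GC content and gene length was fitted, which brought the log2 fold change of *Zeb2* to -0.018 (adjusted p = 0.89). *Zeb2* has the lowest GC content of the 9, 40.6% in its longest transcript, and the greatest exon length, 19.94 kb. Of 22 other settings 15 kept the call, and the fit without the libraries Wnt9bKO 2 and DKO 3 was not one of them.

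*Tcf12*, the dimerization partner of the TWIST factors and a gene of cranial suture development, had 477 and 498 CPM in wt. It was lower in each Wnt9bKO library, with 349, 350.2 and 377 CPM (log2 fold change -0.44 ± 0.11 SE, adjusted p = 0.0065). The offset for GC and length left this call and took the log2 fold change to -0.78. Leaving out wt replicate 2 ended it (adjusted p = 0.052), and in that fit the remaining wt library was assumed to vary like the other groups.

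The SNAI genes stood higher in Wnt9bKO without passing the adjusted threshold. *Snai1* held 4.997 and 6.03 CPM in wt and 9.95, 7.27 and 8.03 CPM in Wnt9bKO, with no overlap (log2 fold change 0.60 ± 0.25 SE, adjusted p = 0.081). With the offset for GC and length the log2 fold change of *Snai1* was 0.91 (adjusted p = 0.015). *Snai2*, a neural crest marker in many vertebrates, held 6.25 and 6.16 CPM in wt. Its Wnt9bKO libraries had 11.6, 5.60 and 11.8 CPM, and the second of these was under both wt values (log2 fold change 0.65 ± 0.32 SE, adjusted p = 0.14). Without that library the log2 fold change of *Snai2* was 0.95 and the gene was called (adjusted p = 0.013).

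The TWIST and PRRX genes spread widely within Wnt9bKO, and none passed the threshold. *Twist1*, which is needed for cranial neural crest mesenchyme and for suture patency, had 104 and 109 CPM in wt and 172, 75.3 and 115 CPM in Wnt9bKO. The mutant libraries lay on both sides of wt (log2 fold change 0.18 ± 0.23 SE, adjusted p = 0.58). *Twist2* behaved alike, with 21.6 and 27.7 CPM in wt and 32.9, 14.2 and 21.9 CPM in Wnt9bKO (log2 fold change -0.10 ± 0.24 SE, adjusted p = 0.78).

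*Prrx1*, which acts with *Prrx2* in jaw and limb skeletal growth, had 378 and 344 CPM in wt. Wnt9bKO gave 392, 212 and 314 CPM, a range that takes in both wt values (log2 fold change -0.24 ± 0.19 SE, adjusted p = 0.35). *Prrx2* had 58.7 and 61.6 CPM in wt and 56.4, 27.5 and 44.9 CPM in Wnt9bKO. Here all mutant libraries were below wt, although not past the threshold (log2 fold change -0.49 ± 0.21 SE, adjusted p = 0.093).

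Single libraries decided which of these 4 genes were called. Leaving out Wnt9bKO replicate 1, which had the highest *Twist1*, *Twist2* and *Prrx1* of all libraries, brought *Prrx1* (log2 fold change -0.46) and *Prrx2* (-0.73) past the threshold as lower in Wnt9bKO. Leaving out Wnt9bKO replicate 2, with the lowest *Twist2*, *Prrx1* and *Prrx2* of all, instead brought in *Twist1* as higher (0.45, adjusted p = 0.048), and the log2 fold change of *Prrx1* became -0.0046. Either way 5 members were called in place of 3, with 32.8% of all genes called in the first case and 29.6% in the second. The same libraries lay at the ends of the summed facial mesenchyme markers, a list without any of the 9 genes, with 1057 CPM in Wnt9bKO 1 and 601 CPM in Wnt9bKO 2 against 858 and 806 CPM in wt. Forebrain and eye markers summed to 290 CPM in Wnt9bKO 2 and to 112 to 197 CPM in the other libraries. *Rspo2* was at 2.86 CPM in Wnt9bKO 2, against its label, and at 22.8 and 18.1 CPM in Wnt9bKO 1 and Wnt9bKO 3. The part of tissue makeup in the *Twist* and *Prrx* values was not tested.

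**Figure D2:**
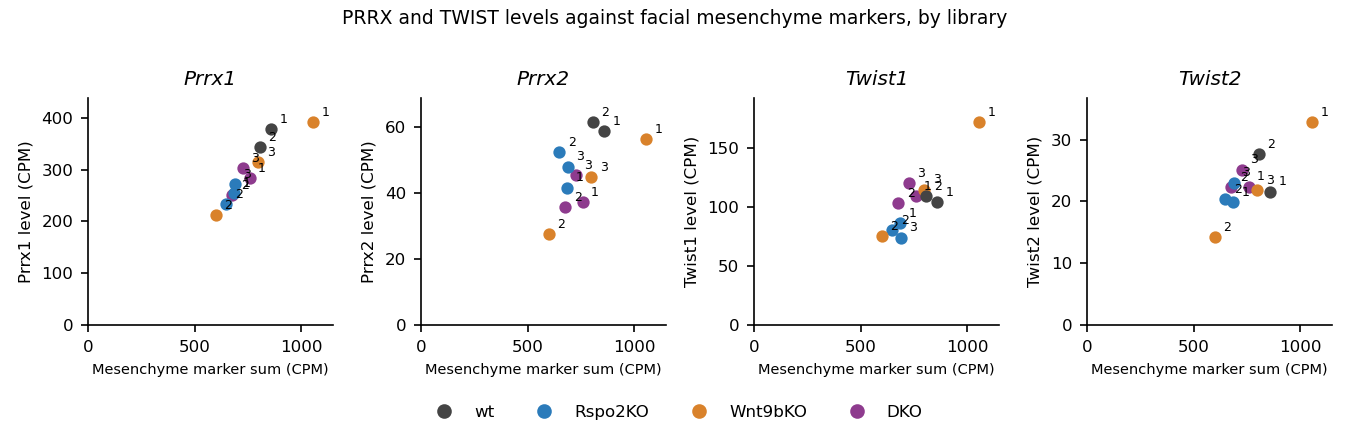
Levels of *Prrx1*, *Prrx2*, *Twist1* and *Twist2* (y axes, CPM) against the summed level of 14 facial mesenchyme markers (x axes, CPM) in 11 libraries, colored by genotype and numbered by replicate. Wnt9bKO 1 at 1057 CPM and Wnt9bKO 2 at 601 CPM of markers sit at the right and left ends of each panel, and the 4 genes are higher in the former than in the latter.

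In DKO embryos the same 3 genes moved in the same directions and *Prrx2* joined them as lower. Thus 4 of 9 members were called against 27.5% of all genes tested, and the groups did not overlap in 7 members against 58.1% of all genes. The wt libraries are those used for Wnt9bKO, so these 2 comparisons share their controls. Without the libraries Wnt9bKO 2 and DKO 3, whose *Rspo2* counts go against their labels, 5 members were called here, *Prrx1* having joined, with 25.6% of all genes. In Wnt9bKO against wt 3 were, *Snai2* in place of *Zeb2*, with 29.7% of all genes.

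*Zeb1* reached 122, 121 and 136 CPM in DKO, 1.99-fold over wt (log2 fold change 0.99 ± 0.13 SE, adjusted p = 0.00015), and was called under all 22 other settings. *Zeb2* stood at 157, 160.1 and 162 CPM, the highest 3 libraries of the series for this gene (log2 fold change 0.51 ± 0.097 SE, adjusted p = 0.0018). With the offset for GC and length the log2 fold change of *Zeb2* was 0.18 (adjusted p = 0.11). *Tcf12* fell to 326, 339 and 395 CPM (log2 fold change -0.47 ± 0.11 SE, adjusted p = 0.0060), and was called under 21 of 22 other settings, the exception being the fit without wt replicate 2 (adjusted p = 0.051).

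*Prrx2* was read at 37.2, 35.8 and 45.4 CPM in DKO, below both wt libraries, and was 1.53-fold lower (log2 fold change -0.61 ± 0.21 SE, adjusted p = 0.045). This call lies at the threshold, as 13 of 22 other settings kept it, and the offset for GC and length did not (log2 fold change -0.44, adjusted p = 0.082). *Prrx1* had 283, 251 and 303 CPM, also under both wt values (log2 fold change -0.37 ± 0.19 SE, adjusted p = 0.16). Of 22 other settings 4 called *Prrx1*, the offset for GC and length being one (log2 fold change -0.58, adjusted p = 0.034). Summed facial mesenchyme markers were at 678 to 759 CPM in DKO and 806 to 858 CPM in wt. Of the 14 markers 2 were called as lower, beside 27.5% of all genes. The markers did not move alike. *Msx1*, a WNT target in the paper, had 137 and 125 CPM in wt and 52.0, 63.3 and 95.3 CPM in DKO. *Pdgfra* had 216 and 198 CPM in wt and 229, 192.5 and 222 CPM in DKO. Whether the 2 PRRX genes follow that sum was not tested.

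*Snai1* held 8.68, 8.09 and 8.25 CPM in DKO, a narrow range above wt (log2 fold change 0.59 ± 0.25 SE, adjusted p = 0.099). It was called under 5 of 22 other settings, among them the offset for GC and length (log2 fold change 0.85, adjusted p = 0.025). *Snai2* held 7.92, 7.72 and 11.3 CPM, above wt too (log2 fold change 0.53 ± 0.32 SE, adjusted p = 0.24). For *Twist1*, with 109, 103 and 120.2 CPM, and *Twist2*, with 22.4, 22.3 and 25.2 CPM, DKO and wt overlapped, at log2 fold changes of 0.053 ± 0.23 SE (adjusted p = 0.89) and -0.088 ± 0.24 SE (adjusted p = 0.82).

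**Figure D3:**
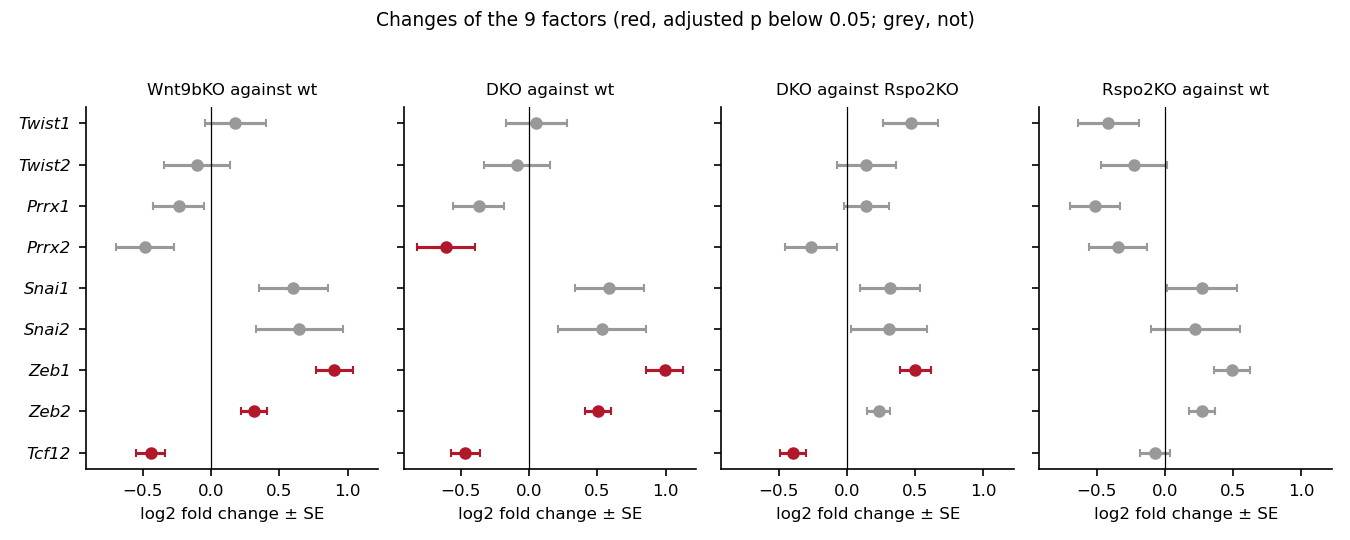
Log2 fold change with its standard error (x axis) of the 9 genes (y axis) in 4 comparisons, from the edgeR fit. Red marks an adjusted p below 0.05. *Zeb1* is red in the 3 comparisons across the *Wnt9b* genotype at 0.90, 0.99 and 0.50, *Tcf12* is red in the same 3 at -0.44, -0.47 and -0.39, and no gene is red in Rspo2KO against wt.

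The loss of *Wnt9b* was also measured in embryos labelled as lacking *Rspo2*, by setting DKO against Rspo2KO. This comparison shares no library with Wnt9bKO against wt, but it too crosses the small nuclear RNA split and embryo sex. DKO 3 held 15.5 CPM of *Rspo2*, against its label. *Zeb1* (log2 fold change 0.50 ± 0.12 SE, adjusted p = 0.0081) and *Tcf12* (-0.39 ± 0.098 SE, adjusted p = 0.012) were called in the same directions as before. They were 2 of 9 members, against 18.2% of all genes tested, and 4 members did not overlap between the groups, against 36.5% of all genes. *Zeb2* was higher without overlap but not past the threshold by edgeR (log2 fold change 0.23 ± 0.085 SE, adjusted p = 0.073). DESeq2 called it with the other 2 genes, beside 20.7% of the genes that DESeq2 tested.

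*Twist1* did not overlap between these groups, without passing the threshold. Rspo2KO libraries had 85.9, 80.3 and 74.0 CPM of *Twist1*, and every DKO library was above them (log2 fold change 0.47 ± 0.20 SE, adjusted p = 0.13). With the offset for GC and length the log2 fold change of *Twist1* was 0.65 (adjusted p = 0.020). *Prrx1* (0.14 ± 0.17 SE), *Twist2* (0.14 ± 0.22 SE) and *Prrx2* (-0.26 ± 0.19 SE) overlapped between these genotypes. The calls in this comparison hung on single libraries. Without Rspo2KO replicate 3 none of the 9 was called, *Zeb1* standing at an adjusted p of 0.054, while the share of all genes called went from 18.2% to 9.75%. Without DKO replicate 1 or DKO replicate 2 only *Zeb1* was called, with 10.8% and 10.9% of all genes. Without Rspo2KO replicate 1 there were 4, *Snai1* and *Zeb2* having joined, with 23.2% of all genes.

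Loss of *Rspo2* alone called none of the 9 genes by edgeR, where 0.0346% of all genes tested were called. By the unadjusted p under 0.05 there were 3 members, *Zeb1*, *Zeb2* and *Prrx1*, against 11.9% of all genes. By DESeq2 there were 0, beside 1.44% of the genes that DESeq2 tested. The groups did not overlap in 6 members against 32.9% of all genes. *Zeb1* had 107, 82.2 and 79.5 CPM in Rspo2KO, above wt and below every Wnt9bKO library (log2 fold change against wt 0.49 ± 0.13 SE, adjusted p = 0.22). *Zeb2* had 140.4, 126 and 142 CPM, also above wt (0.27 ± 0.096 SE, adjusted p = 0.29).

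*Prrx1* had 255, 233 and 272 CPM in Rspo2KO, all under wt and 1.43-fold lower on average (log2 fold change -0.51 ± 0.19 SE, adjusted p = 0.29). When no filter on low counts was used, *Prrx1* and *Zeb1* passed the threshold in this comparison, among 2.04% of all genes. *Prrx2* had 41.7, 52.3 and 48.0 CPM and was below wt in each library (-0.35 ± 0.21 SE, adjusted p = 0.55). *Twist1* was below wt in each too (-0.41 ± 0.22 SE, adjusted p = 0.49). Facial mesenchyme markers summed to 649 to 690 CPM in Rspo2KO, under both wt libraries, though not every marker was lower. *Msx1* had 71.4, 72.0 and 67.6 CPM against 137 and 125 CPM in wt. *Alx1* had 58.3, 57.7 and 58.6 CPM against 48.5 and 58.6 CPM in wt. The part of these markers in the lower *Prrx* and *Twist1* values was not tested. *Tcf12* stood at 455, 462 and 475 CPM, just under wt (-0.071 ± 0.11 SE, adjusted p = 0.84). *Twist2* with 19.9, 20.4 and 23.0 CPM, *Snai1* with 9.58, 5.94 and 4.73 CPM and *Snai2* with 10.2, 5.76 and 5.93 CPM overlapped with wt, and the high *Snai* values were both in Rspo2KO 1.

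Adding the loss of *Rspo2* to that of *Wnt9b* was measured as DKO against Wnt9bKO. None of the 9 members was called by edgeR, where 0.121% of all genes tested were. DESeq2 gave 0 as well, beside 0.409% of the genes that DESeq2 tested. At an unadjusted p under 0.05 *Zeb2* alone stood out, against 5.63% of all genes. It was also the only member whose libraries did not overlap, against 11.2% of all genes (log2 fold change 0.19 ± 0.085 SE, adjusted p = 0.84). The other 8 log2 fold changes lay between -0.13 for *Prrx1* and 0.090 for *Zeb1*. Wnt9bKO 2 and DKO 3 held *Rspo2* counts against their labels, at 2.86 and 15.5 CPM, so the labelled groups cannot settle what its loss adds. Across 22 other settings, log2 fold changes ran from -0.59 to 0.053 for *Snai2* and from -0.48 to 0.12 for *Prrx2*. For *Twist1* they ran from -0.44 to 0.22 and for *Prrx1* from -0.40 to 0.087. These settings include the fit without both libraries, and none called a member. For the interaction of both genotypes, the difference between the effect of *Wnt9b* loss with and without *Rspo2*, 0 members were called by edgeR against 0.0635% of all genes. *Zeb1* had an unadjusted p under 0.05 there, against 9.44% of all genes, with an interaction of -0.40 ± 0.18 SE on the log2 scale (adjusted p = 0.50). DESeq2 called no member in the interaction, beside 0.221% of the genes that DESeq2 tested.

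**Figure D4:**
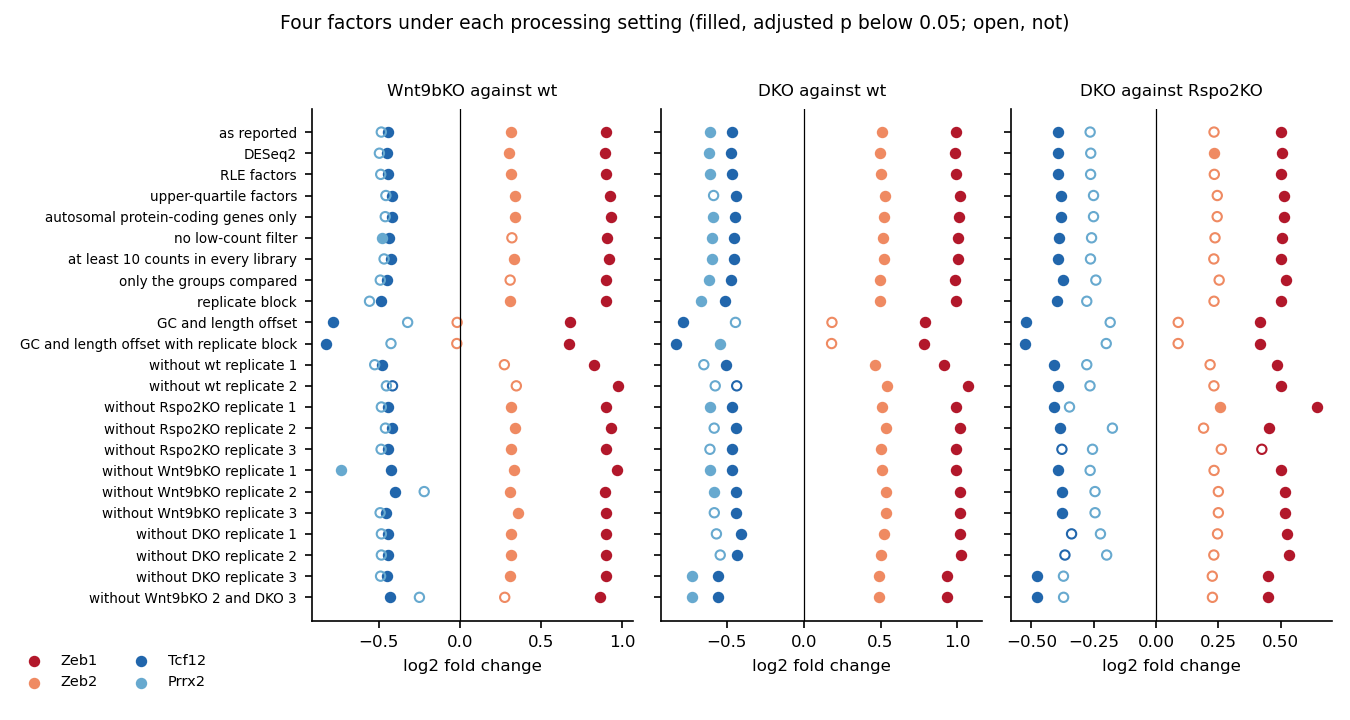
Log2 fold changes (x axes) of *Zeb1*, *Zeb2*, *Tcf12* and *Prrx2* in 3 comparisons under each processing setting (y axis). Filled points have an adjusted p below 0.05 and open points do not. *Zeb1* stays filled throughout the first 2 panels, whereas *Zeb2* moves to -0.018 and 0.18 in them once GC content and length are fitted.

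Ratios within a paralog pair do not depend on the scaling of libraries to each other. *Zeb2* to *Zeb1* counts stood at 1.77 ± 0.066 in wt (SD, n = 2) and 1.54 ± 0.23 in Rspo2KO (n = 3). The ratio was 1.179 ± 0.072 in Wnt9bKO and 1.27 ± 0.068 in DKO, so that the highest value without *Wnt9b*, 1.325, lay just above the lowest in Rspo2KO, 1.317, and below both wt values. *Prrx1* to *Prrx2* ran from 5.58 to 6.43 in wt and from 4.45 to 6.11 in Rspo2KO, and from 6.68 to 7.71 in the 6 libraries without *Wnt9b*, without overlap between these sets. Which PRRX gene fell more against wt depended on the setting. With an offset for GC content and gene length, the log2 fold changes in Wnt9bKO were -0.45 for *Prrx1* and -0.32 for *Prrx2*. In DKO they were -0.58 and -0.44, so that *Prrx1* then had the larger fall in both. The cause of this dependence was not tested. *Twist1* to *Twist2* lay between 5.23 and 5.29 in all 3 Wnt9bKO libraries, although the level of *Twist2* differed 2.31-fold among them, and between 3.21 and 4.86 in all others. *Snai2* to *Snai1* ranged widely, from 0.770 to 1.47, with both ends in Wnt9bKO.

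Within Wnt9bKO and within DKO the TWIST and PRRX genes varied together, but not within every genotype. In Rspo2KO 1, 2 and 3 *Twist1* had 85.9, 80.3 and 74.0 CPM, whereas *Twist2* had 19.9, 20.4 and 23.0 CPM. The correlations below pool all genotypes and take in the wide spread between Wnt9bKO 1 and Wnt9bKO 2. Over 11 libraries, after subtraction of the genotype means, Pearson's r of log2 CPM was 0.91 for *Twist1* and *Twist2*, 0.87 for *Prrx1* and *Prrx2*, 0.90 for *Twist1* and *Prrx1* and 0.91 for *Twist2* and *Prrx2*. *Zeb1* had negative r with each of these 4, from -0.37 for *Prrx2* to -0.15 for *Twist1*. Without the subtraction *Zeb1* and *Zeb2* gave 0.89 and *Zeb1* and *Tcf12* gave -0.82, values that contain the genotype differences already described. These r describe 11 libraries that share genotype, scaling and tissue makeup.

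Among all genes tested, the closest in pattern to *Twist1* was *Wnt6*, a WNT ligand gene, at r = 0.93 over the 11 libraries. *Twist2* was most like *Kcnj2*, a potassium channel gene, at 0.98, and *Prrx1* most like *Rarg*, a retinoic acid receptor gene, at 0.97. *Prrx2* was nearest to *Bdnf*, a neurotrophin gene, at 0.95. *Snai1* had *Rab11b*, a vesicle traffic gene, at 0.97, and *Snai2* had *Cd63*, a tetraspanin gene, at 0.94. For *Zeb1* it was *Scamp1* at 0.99, for *Zeb2* the synapsin gene *Syn3* at 0.97, and for *Tcf12* the mRNA decapping gene *Edc3* at 0.99. Within genotypes r for these nearest genes was 0.84 for *Syn3*, the lowest, to 0.99 for *Kcnj2*, the highest. The second nearest were *Agap3* for *Twist1*, *Fibin* for *Twist2*, *Wnt10b* for *Prrx1*, *Krt14* for *Prrx2* and *Grik5* for *Snai1*. They were *Begain* for *Snai2*, *Ankib1* for *Zeb1*, *Arhgap20* for *Zeb2* and *Rbbp4*, a histone-binding subunit of the NuRD complex, for *Tcf12*. These second nearest genes had r of 0.91 to 0.99. *Wnt10b* was near the floor, at 0.179 to 1.38 CPM, and *Krt14* was at 0.774 CPM in Wnt9bKO 2. All genes named here were picked for the highest r among all genes tested, and shared regulation was not tested.

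Genes that work with these factors were then read as 5 lists, and no gene of any of them was called by edgeR in Rspo2KO against wt or in DKO against Wnt9bKO. Of 17 bHLH, homeobox and zinc finger relatives and partners, 16 were in the files, 14 were tested and 3 were called in Wnt9bKO against wt, 1 higher and 2 lower, a share of 21.4% beside 32.8% of all genes. *Tcf3*, an E-protein gene like *Tcf12*, was among the lower ones (log2 fold change -0.41 ± 0.095 SE, adjusted p = 0.0045), whereas the third E-protein gene *Tcf4* was at 0.13 ± 0.12 SE (adjusted p = 0.44). The higher one was *Id4*, an inhibitor of bHLH dimers (0.81 ± 0.20 SE, adjusted p = 0.0076), while *Id3*, of the same family, was lower (-0.46 ± 0.15 SE, adjusted p = 0.033). *Id4* was the only relative called in DKO against Rspo2KO as well.

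Of 16 corepressor genes that SNAI and ZEB proteins recruit, 3 were higher and 3 lower in Wnt9bKO against wt, a share of 37.5% beside the 32.8% of all genes. The histone deacetylase gene *Hdac1* fell from 123 ± 14.3 CPM (SD, n = 2) to 39.7 ± 4.18 CPM (SD, n = 3) (log2 fold change -1.63 ± 0.14 SE, adjusted p = 3.5e-06). *Ctbp1*, a ZEB corepressor (-0.72 ± 0.10 SE), and *Rbbp4* (-0.64 ± 0.11 SE) were lower too. *Chd4*, the NuRD remodeler, was higher (0.80 ± 0.14 SE). These 4 were also called in DKO against Rspo2KO.

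Of 25 epithelial targets, 3 were called in Wnt9bKO against wt, 12.0% of the list beside 32.8% of all genes. *Grhl3*, a factor of surface ectoderm whose promoter is shown above, rose from 3.44 ± 0.431 to 9.69 ± 2.06 CPM (log2 fold change 1.504 ± 0.28 SE, adjusted p = 0.0011). The desmosome gene *Dsp* rose (0.64 ± 0.15 SE) and the keratin gene *Krt8* fell (-0.54 ± 0.14 SE). *Cdh1* stood at 29.2 ± 2.27 CPM in wt and 32.5 ± 4.57 CPM in Wnt9bKO (0.16 ± 0.14 SE, adjusted p = 0.41). *Epcam*, an epithelial adhesion gene, stood at 33.8 ± 4.32 and 41.3 ± 4.10 CPM (0.29 ± 0.13 SE, adjusted p = 0.099). The median over the list was 0.056, and *Zeb1* was higher in the same libraries. Epithelial markers, 12 in all, summed to 316 to 329 CPM in wt and 299 to 337 CPM in Wnt9bKO. Whether the level of *Zeb1* bears on these genes was not tested.

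Of 24 mesenchyme products, 8 were higher and 1 lower in Wnt9bKO against wt, 37.5% in all beside 32.8% of all genes, with a median log2 fold change of 0.27 beside 0.013. Integrin *Itgb1* (0.83 ± 0.13 SE), collagen *Col5a2* (0.63 ± 0.19 SE) and *Sparc* (0.64 ± 0.17 SE) were higher, and the smooth muscle actin gene *Acta2* was lower (-0.75 ± 0.21 SE). *Vim*, the intermediate filament gene of mesenchyme, was at 0.031 ± 0.14 SE (adjusted p = 0.89). *Cdh2*, which encodes N-cadherin, was at 0.44 ± 0.17 SE (adjusted p = 0.055). Of 17 genes of the suture network around *Twist1*, 3 were higher and 3 lower, 35.3% beside the same 32.8%, and *Foxc1*, a forkhead factor of skull mesenchyme, was the only one of these called in DKO against Rspo2KO as well (0.58 ± 0.17 SE in Wnt9bKO against wt). In DKO against wt, where 27.5% of all genes were called, the counts higher and lower were 2 and 2 of 14 relatives, 3 and 5 of 16 corepressors, 2 and 1 of 25 epithelial targets, 7 and 1 of 24 mesenchyme products, and 2 and 0 of 17 suture genes.

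Levels of other cell types differed between genotypes as well. Beside the counts below, 32.8% of all genes were called in Wnt9bKO against wt and 27.5% in DKO against wt. Of 10 forebrain and eye markers, 7 were higher in Wnt9bKO against wt and 5 in DKO against wt, with sums of 140 to 290 CPM and 164 to 197 CPM against 112 to 128 CPM in wt. Of 11 erythroid markers, 6 were lower in Wnt9bKO and 8 in DKO, with sums of 1796 to 2395 CPM and 1755 to 2862 CPM against 3990 to 4952 CPM in wt. Of 13 neuron markers, 4 were lower in Wnt9bKO and 5 higher in DKO, with sums of 422 to 665 CPM and 810 to 912 CPM against 676 to 789 CPM in wt. Neuron sums ran from 847 to 979 CPM in Rspo2KO, so they did not split by the *Wnt9b* genotype. Heart and muscle markers, 12 in all, set wt 1 apart at 119 CPM, with 31.6 CPM in the other wt library and a range of 18.0 to 51.2 CPM over the mutants, and 4 of the 7 tested were lower in both Wnt9bKO and DKO against wt. Without wt replicate 1, 2 members (*Zeb1* and *Tcf12*) were called in Wnt9bKO against wt, with 17.6% of all genes, and 3 (these and *Zeb2*) in DKO against wt, with 12.7%. No marker of these 4 lists was at 0 in every library. The part of these cells in the changes of the 9 genes was not tested.

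*Twist1* spans chr12:33957671-33959829, *Twist2* chr1:91801461-91848028, *Prrx1* chr1:163245119-163313710 and *Prrx2* chr2:30834972-30881251. *Snai1* spans chr2:167538195-167542814 and *Snai2* chr16:14705852-14709385. *Zeb1* spans chr18:5591860-5775467, *Zeb2* chr2:44983632-45117395 and *Tcf12* chr9:71842688-72111871. All 9 are annotated as protein coding in GENCODE M21 on GRCm38. A pair of members shares exon sequence with other counted genes. The antisense gene *Zeb2os* overlaps 653 exonic bases of *Zeb2* and held 1.01 to 2.85 CPM, and *Gm10125* overlaps 198 exonic bases of *Zeb1* and held 4.37 to 8.83 CPM. Whether counting used the strand is not given in the sources used here, so reads of these stretches cannot be assigned with certainty. *Twist2* shares 1477 exonic bases with *Gm29100*, an antisense gene whose identifier was not in the count tables.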

How the data were processed

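Total RNA of facial process explants was sequenced as single-end reads. By the methods and the labels, the authors used Cutadapt to trim reads, STAR for mapping to GRCm38 and HTSeq for counting per gene. Versions, annotation release and strand setting are not given in the sources used here. The deposited values are raw counts per Ensembl gene, without normalization. The labels give 2 wt libraries, against 3 samples per genotype in the methods.

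Identifiers were matched to GENCODE M21 (GRCm38), which named 36723 of 38561 genes. Genes were filtered with filterByExpr and scaled by TMM, and one quasi-likelihood model over all 11 libraries was fitted in edgeR 4.0.16 (R 4.3.3), with p-values adjusted by Benjamini-Hochberg over 17317 genes and a threshold of 0.05. SE is the standard error of the log2 fold change. Alternatives were DESeq2 1.42.0, other scalings and filters, an offset for GC content and length (loess, span 0.3), a replicate block and leaving out libraries. The model was tested on simulated data. Libraries of a genotype differed by more than counting noise (chi-square per degree of freedom of 6.01 or more), so none was 1 library deposited again; repeat preparations of 1 RNA would not be seen this way.

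The 9 members, the lists and the rules were chosen with earlier results of these data known. List genes named were those past the threshold in both Wnt9bKO against wt and DKO against Rspo2KO, up to 4 a list by the smaller change, with *Cdh1*, *Epcam*, *Vim*, *Cdh2*, *Tcf3* and *Tcf4* by rule, and *Id3* named after its values were seen. The closest genes in pattern were those with the highest Pearson's r of log2 CPM (prior count 2). Motifs were searched on both strands of RefSeq promoter windows.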

Additional observations from a re-analysis of the deposited data

How the results depend on the processing

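Counts of members called moved by more than 1.5 times in these cases. Without the low-count filter 5 members were called in Wnt9bKO against wt (20.8% of all genes) and 2 in Rspo2KO against wt (2.04%). Leaving out single libraries gave 1 to 5 members in Wnt9bKO against wt, the 1 without wt replicate 2 (18.8% of all genes), 2 to 5 in DKO against wt, the 2 again without wt replicate 2 (14.4%), and 0 to 4 in DKO against Rspo2KO. In the other 3 comparisons leaving out a library called 0. The other 121 values of these counts stayed within 1.5 times. Counts over all genes depended on the setting where few were called, with 6 in Rspo2KO against wt as reported, 177 by DESeq2 and 572 without the filter, and with 21, 86 and 220 in DKO against Wnt9bKO.

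The sign of a log2 fold change turned in 37 recomputed values of single members, none of which was called under that setting. A further 22 values fell short of the threshold and 32 newly passed it, and 1092 kept direction and side. Under the offset for GC and length, *Zeb2* went to -0.018 in Wnt9bKO against wt (-0.020 with the replicate block) and to 0.11 in the interaction (0.11 with the block), and *Twist2* to 0.026 in Wnt9bKO and 0.042 in DKO against wt. Without Wnt9bKO 2 and DKO 3 together, *Twist1* went to -0.015 in DKO against wt and -0.013 in the interaction. *Twist2* went to 0.14 in Wnt9bKO against wt, -0.30 in DKO against Wnt9bKO and -0.057 in the interaction, *Prrx2* to -0.12 and *Tcf12* to -0.046 in the interaction. Leaving out single libraries gave *Twist1* -0.17 to 0.45 in Wnt9bKO against wt, -0.016 to 0.10 in DKO against wt and -0.37 to 0.22 in DKO against Wnt9bKO. For *Twist2* these ranges were -0.45 to 0.17, -0.26 to 0.11 and -0.23 to 0.37, and -0.014 to 0.60 in the interaction. In DKO against Wnt9bKO they were -0.34 to 0.087 for *Prrx1*, -0.36 to 0.12 for *Prrx2*, -0.11 to 0.13 for *Snai1*, -0.38 to 0.053 for *Snai2* and -0.11 to 0.033 for *Tcf12*. In Rspo2KO against wt they were -0.056 to 0.47 for *Snai1* and -0.084 to 0.39 for *Snai2*. In the interaction they were -0.024 to 0.47 for *Prrx2*, -0.49 to 0.041 for *Snai1* and -0.028 to 0.10 for *Tcf12*. The causes were not tested.

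Deviations from the genotype means gave r of -0.11 to 0.24 over 15 pairs of same-numbered libraries (median 0.066, 3 above 0.1) and a median of -0.024 over 30 pairs of other numbers (1 above 0.1). Same-numbered pairs between mutant genotypes ran from 0.041 to 0.24, and the negative same-numbered values all involved a wt library. Not every pair was above 0.1 and the labels name no shared litter. The numbers were therefore not taken as pairs in the main fit, and a replicate block was fitted as an alternative. With the replicate block 3, 4 and 2 members were called in Wnt9bKO against wt, DKO against wt and DKO against Rspo2KO, as without it. With the block 35.0%, 29.6% and 20.1% of all genes were called in these comparisons. Depth limits *Snai1* and *Snai2* most, with 56 to 219 counts per library.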
